A study of Mus musculus musculus x Mus musculus castaneus with 7 samples.

Results

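The SSEA1+ reprogramming intermediates of Day 10 and Day 13 were set against the library labelled Day 2, to describe what these cells kept of the fibroblast programme and what they had gained. The comparison used 3 of the 7 RNA sequencing libraries of the series, with 1 library in each group, and so has no replicate check and no p-value. The cells were female mouse embryonic fibroblasts, described as Mus Musculus/Mus Castaneus. Lentiviruses carrying doxycycline-inducible Pou5f1, Sox2, Klf4 and Myc (tetO-FUW-OSKM) and the activator M2rtTA had been delivered to them before the fibroblasts were sorted for a uniform active or inactive X-GFP allele. Per the labels' protocols, all 3 groups received doxycycline at 2 µg/ml and ascorbic acid at 50 µg/ml, in embryonic stem cell (ESC) medium containing serum and LIF. Day 10 and Day 13 cells were sorted for SSEA1, a fucosylated cell-surface sugar found on mouse stem cells, whereas the Day 2 label names no SSEA1 sort, so time under doxycycline and selection for SSEA1 cannot be told apart. The labels do not say whether the 3 libraries came from 1 culture, and a library reports the average of many cells. Fewer cells of a type and less RNA per cell therefore cannot be told apart in any result given here.

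Embryonic fibroblasts are mesenchymal cells that secrete and remodel collagen matrix, contract through actin bundles, and keep a record of their position in the body in their Hox genes. When the reprogramming factors act on them, fibroblasts pass through a mesenchymal-to-epithelial transition, in which matrix and contractile genes are silenced and junction genes such as Cdh1 are switched on, before the endogenous pluripotency network becomes active. SSEA1 is widely used to enrich the cells that have left the fibroblast state and are on the way to pluripotency.

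Values are normalized counts, which are the reads of a gene divided by a size factor of the library, and differences are on the log2 scale of normalized counts plus 1. The libraries held 49549757 reads assigned to genes at Day 2, 42899719 at Day 10 and 34687308 at Day 13. At least 1 read was found for 16336, 19524 and 20923 genes, in the same order. A gene without a read at Day 2 was not always a rare one: 6966 genes reached 256 normalized counts everywhere but in the Day 2 library, and 116 of them (1.67%) were without a read there. By the same measure the Day 10 library lacked 1 of 6571 genes, Day 13 lacked 0 of 6535 and Day 8 lacked 150 of 7045. Of these 116 genes, 37 belong to the lists of gained genes described further on. Folds against a library without a read are written as at least the fold over 3 reads, and the ranges in brackets after other folds are 95% intervals (Clopper-Pearson) on read numbers. The reads carried no molecular identifiers, so intervals and bounds cover counting error only.

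The 4 genes of the vector were examined first, because the counts do not separate the vector's transcripts from the cells' own. Pou5f1, which encodes Oct4, had 0 normalized counts at Day 2, 21944 at Day 10 and 15943 at Day 13. Sox2 had 0, 1648 and 1057 normalized counts, and Klf4 had 283, 4572 and 1699. Myc, the growth-promoting factor of the cassette, had 8935, 5553 and 3048 normalized counts and was not called different. The library labelled Day 2 thus held no read of 2 of the 4 vector genes among its 49549757 reads, although its label gives doxycycline treatment. It also lacked reads of other abundant genes, as given above. Whether the vector was induced in it was not tested. In all that follows, Day 2 stands for the library so labelled, and every direction is a direction away from it.

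A gene entered the comparison if its highest value among the 3 libraries reached 6 on the log2 scale, which is 63 normalized counts. A gene was called different where both intermediates lay at least 2 (4-fold) from Day 2 in the same direction. Of 24393 genes in the table, 14915 were compared. Of these, 2639 (17.7%) were higher and 1385 (9.29%) were lower in both intermediates. A further 9113 genes (61.1%) lay within 2 of Day 2 in both intermediates. Genes past the threshold in 1 intermediate only numbered 786 on the higher side (303 at Day 10 and 483 at Day 13) and 964 on the lower side (610 and 354), and 28 genes went opposite ways. The median difference over all genes compared was 0.06 at Day 10 and 0.10 at Day 13.

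**Figure D1:**
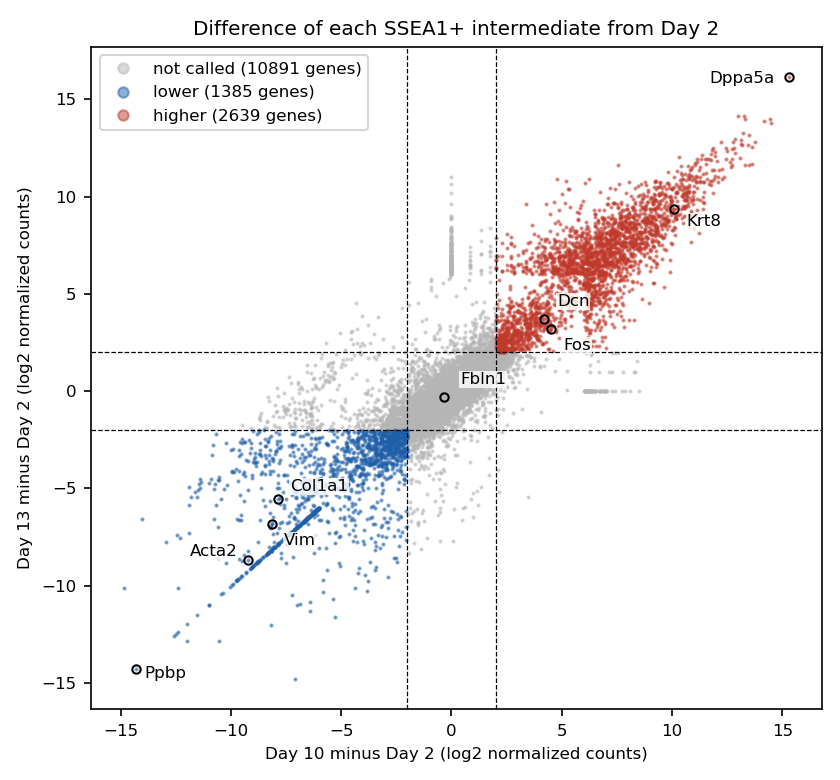
Each point is 1 of the 14915 genes compared; the x axis is Day 10 minus Day 2 and the y axis Day 13 minus Day 2, both as differences of log2 normalized counts, and dashed lines mark a difference of 2. The 2639 genes higher in both intermediates lie at the upper right, the 1385 lower genes at the lower left, and 9 named genes are circled.

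Higher genes were mostly unread at Day 2, whereas many lower genes were still present. No read was found at Day 2 for 1770 of the higher genes (67.1%), and 372 were already at or above 6 there. For 203 lower genes neither intermediate held a read, and for 449 lower genes at least 1 intermediate held none. By contrast, 582 lower genes (42.0%) were still at or above 6 in both. With values below 3 reads set to 3 reads, the median difference of the higher genes was 4.72 at Day 10 and 4.95 at Day 13, and that of the lower genes was -4.38 and -3.74. With at least 1 read required in all 3 libraries, 869 genes were higher and 936 lower. Just inside the threshold were Atp10d (2.43 and 2.002 at Days 10 and 13) on the higher side and Rbms1 (-2.0005 and -2.0047) on the lower side. Just outside it were Clybl (1.99 and 2.68) and Rspo2 (-3.32 and -1.997).

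Ranked by the smaller of the 2 differences with zeros set to 3 reads, the genes furthest above Day 2 included pluripotency and epithelial genes. Dppa5a, an RNA-binding marker of undifferentiated stem cells (chromosome 9, 78367052 to 78368177 in GRCm38), had 0 normalized counts at Day 2, 40194 at Day 10 and 72146 at Day 13, at least 14655-fold and at least 26304-fold higher. The others of the first 12 were Pou5f1, the adhesion molecule gene Epcam, the tight junction gene Cldn4, the Nodal co-receptor Tdgf1, the stem cell factor Utf1, the X-linked Bex1, E-cadherin (Cdh1), the hormone precursor Trh, the threonine dehydrogenase Tdh, the zinc finger factor Sall4 and Ly6g6c. All 12 of these genes had no read at Day 2 and at least 7031 normalized counts in each intermediate.

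Genes furthest below Day 2 were of varied function. Ppbp, a platelet-type chemokine gene (chromosome 5, 90768518 to 90770063), had 20042 normalized counts at Day 2 and 0 in both intermediates, at least 8602-fold and at least 6840-fold lower. Inhba, the activin subunit gene, had 36630, 23.3 and 3.91 normalized counts, 1572-fold (1101 to 2330) and 9376-fold (3662 to 34412) lower. Lrrc32, which holds latent TGF-beta at the cell surface, had 29098, 0 and 25.4. Ankrd1, a YAP target, the matricellular gene Smoc2, the forkhead genes Foxs1 and Foxc2, the signalling regulator Rgs4, the growth factor gene Ereg and the glycosyltransferase gene Galnt18 had between 2018 and 6182 normalized counts at Day 2 and 0 in both intermediates. Wnt5a, a non-canonical Wnt ligand, had 5464, 0 and 3.91.

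The cell type labels were checked against markers. Of 8 fibroblast markers, all were lower in both intermediates: among them the surface antigen gene Thy1 had 1328, 81.5 and 196 normalized counts at Days 2, 10 and 13, the PDGF receptor gene Pdgfrb had 3827, 0 and 127, and Twist1, a mesenchymal factor, had 156, 0 and 4.88. All 6 pluripotent markers were higher, among them Pou5f1, whose reads include any from the vector. Nanog had 2.74, 8155 and 6392, Esrrb had 0, 2744 and 1733, and Zfp42 (Rex1) had 0, 5728 and 5250. Epithelial markers were higher as well, with 0, 11513 and 9127 for Cdh1, 50.3, 56284 and 33275 for Krt8 and 64, 11356 and 16377 for Krt18. The libraries of both intermediates thus held pluripotent, epithelial and residual fibroblast transcripts.

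The fibroblast programme was followed in 13 lists with 272 genes compared. List members were chosen with earlier results of these data known, so their excess over all genes may partly follow from that choice. Of these 272 genes, 191 (70.2%) were lower in both intermediates, against 9.29% of all genes, 24 were lower in 1 only, 48 lay within 2 in both, 4 were higher in 1 only and 5 were higher in both. The median difference was -4.13 at Day 10 and -3.69 at Day 13, against 0.06 and 0.10 over all genes compared. Together the listed genes took 10.5% of all reads at Day 2, 1.05% at Day 10 and 1.01% at Day 13, and the induced pluripotent (iPSC) and ESC libraries spent 0.622% and 0.573% on them. Lower did not mean absent: 106 of the 191 lower genes (55.5%) were still at or above 6 in both intermediates, against 42.0% of all lower genes. This share also depends on the Day 2 level, so it does not measure retention alone. It was 87.5% for the abundant fibrillar collagens and 4.55% for the Hox genes, which were low at Day 2.

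**Figure D2:**
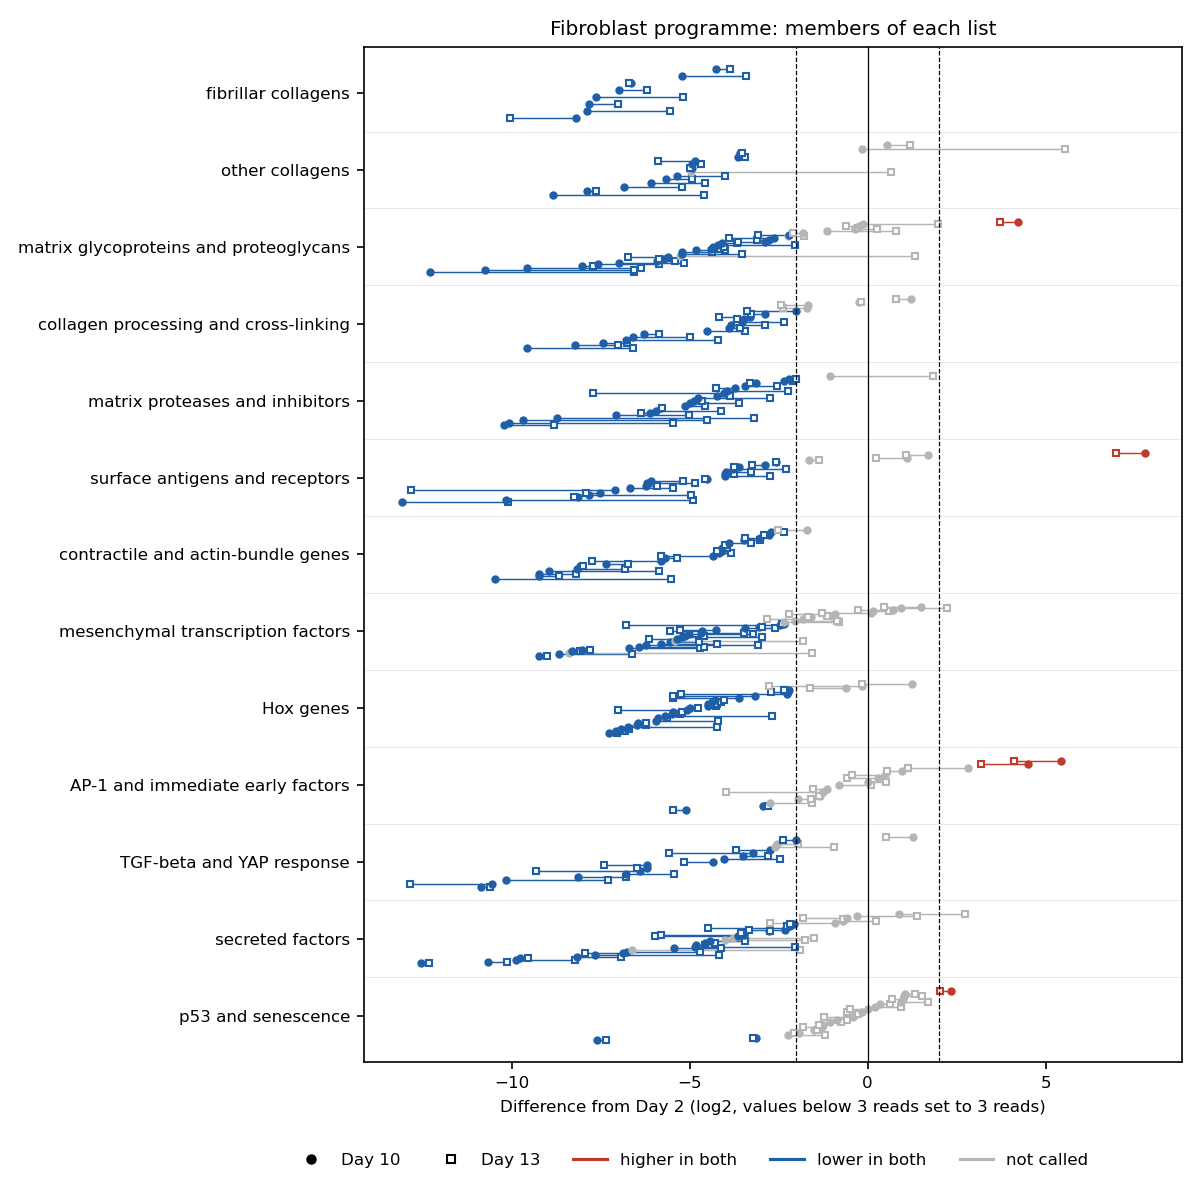
Every compared member of the 13 fibroblast lists is drawn as a line from Day 10 (filled circle) to Day 13 (open square); the x axis is the log2 difference from Day 2 with values below 3 reads set to 3 reads, and dashed lines mark 2 in each direction. Matrix, protease and contractile lists lie almost wholly to the left, whereas the AP-1 and p53 lists straddle 0.

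Fibrillar collagens, which build the tensile fibres of connective tissue, were lower in 8 of 8 members, with medians of -7.31 and -5.87. Col1a1, the main chain of collagen I, had 505292 normalized counts at Day 2, 2146 at Day 10 and 10800 at Day 13, 235-fold (227 to 245) and 46.8-fold (45.9 to 47.7) lower. Col1a2, its partner chain, had 242877, 1227 and 6673, and Col3a1 had 55517, 1495 and 5211. Day 10 was the lowest of the 3 libraries for each of these chains. Col5a3, a minor collagen V chain, had 4134, 13.2 and 0. The remaining named members Col2a1, the cartilage collagen (26497, 115 and 202), Col5a1 (44943, 448 and 430) and Col5a2 (64593, 507 and 884) were also lower, and 7 of the 8 fibrillar collagens stayed at or above 6 in both intermediates. The list took 2.09% of reads at Day 2, 0.0184% at Day 10 and 0.0721% at Day 13.

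Other collagens were lower in 11 of 14 members, with medians of -5.36 and -4.58. Basement membrane collagen IV was among those with most left: Col4a1 had 15014, 1250 and 1303 normalized counts and Col4a2 had 11069, 888 and 1019, between 10.9-fold and 12.5-fold lower. Microfibrillar collagen VI was lower by more, with 20646, 406 and 675 for Col6a2, 20130, 486 and 1254 for Col6a1 and 8500, 277 and 267 for Col6a3. Col15a1, a basement membrane zone collagen, had 785, 0 and 0.977. Col18a1, the source of endostatin, was the exception within 2, with 3567, 5220 and 8106 normalized counts, 1.46-fold (1.41 to 1.52) and 2.27-fold (2.19 to 2.36) higher, and it stood at 14957 in iPSCs and 13100 in ESCs. Col8a2 (103, 1.55 and 162) and Col14a1 (0, 0 and 175) differed between the 2 intermediates and were not called.

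Matrix glycoproteins and proteoglycans were lower in 20 of 29 members, higher in 1 and within 2 in 5, with medians of -4.34 and -3.67. Thbs1, which binds and activates TGF-beta, had 303053 normalized counts at Day 2, 1163 at Day 10 and 1428 at Day 13, 261-fold (248 to 274) and 212-fold (202 to 224) lower. Tenascin C (Tnc) had 24752, 31.8 and 299, Ccdc80 had 31204, 17.1 and 328, and the elastic fibre gene Fbln5 had 16741, 0 and 177. In these 3 genes Day 10 again lay below Day 13. Fibronectin (Fn1) and the collagen-binding Sparc were lower yet abundant, at 120689, 7120 and 9480 and at 155300, 7672 and 9390, against 7748 and 8629 in iPSCs. Fbln2, an elastic fibre and basement membrane protein, had 53368, 8533 and 3563, against 253 in iPSCs and 226 in ESCs.

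Several matrix genes were kept. Fbln1, a fibulin of elastic fibres, had 3060 normalized counts at Day 2, 2395 at Day 10 and 2519 at Day 13, 1.28-fold (1.22 to 1.34) and 1.21-fold (1.15 to 1.28) lower as deposited but higher than Day 2 when libraries were scaled by total reads. The microfibril gene Mfap5 had 1433, 1220 and 943, and Nid2, which links laminin to collagen IV, had 5319, 4154 and 6421. All 3 of these genes were also present in iPSCs (1579, 909 and 9053) and ESCs (2445, 1050 and 8617). Decorin (Dcn), a proteoglycan that coats collagen fibrils, was the only member higher in both, with 289 at Day 2, 5384 at Day 10 and 3814 at Day 13, 18.6-fold (16.6 to 20.9) and 13.2-fold (11.8 to 14.9). Outside these libraries Dcn reached 8747 at Day 8 and 1249 at Day 15, with 0 for iPSCs and 176 for ESCs, so SSEA1+ cells of Days 8 and 10 held the most.

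Genes that process and cross-link collagen were lower in 14 of 18 members, with medians of -3.69 and -3.52. The lysyl oxidase gene Lox, which cross-links collagen and elastin, had 92042, 527 and 844 normalized counts, 175-fold (162 to 189) and 109-fold (102 to 117) lower. Its relatives Loxl1 (26524, 34.2 and 272) and Loxl3 (19350, 63.7 and 147) and the collagen prolyl isomerase Fkbp10 (24425, 311 and 416) followed. The collagen chaperone Serpinh1, at 103304, 1075 and 3218, the procollagen C-proteinase enhancer Pcolce, at 29825, 3027 and 1653, and the lysyl hydroxylase Plod3, at 15534, 1075 and 2099, were lower with most left. By contrast the prolyl 4-hydroxylase P4ha1 had 6909, 5859 and 6122, and the lysyl hydroxylase Plod2 had 2912, 6710 and 5040, both within 2 of Day 2. In iPSCs these 2 genes stood at 1333 and 928, so both intermediates were closer to Day 2 than to iPSCs. Crtap, a partner of the prolyl 3-hydroxylase, had 10224, 3153 and 1948 and passed the threshold at Day 13 only (-2.39).

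Matrix proteases and their inhibitors were lower in 20 of 21 members, with medians of -4.997 and -4.12. The metalloprotease inhibitors Timp3 (26050, 464 and 476 normalized counts) and Timp1 (59817, 4509 and 3090) were lower, Timp3 by 56.1-fold (51.7 to 60.9) at Day 10 and Timp1 by 13.3-fold (12.9 to 13.6). The disintegrin protease Adam12 had 2749, 38.8 and 32.2 and the tissue plasminogen activator Plat had 3613, 0 and 81.1. Plaur, the urokinase receptor gene, and Serpine2, a thrombin inhibitor gene, had most left, at 14217, 1618 and 1431 and at 6751, 1310 and 1586. Mmp9, a gelatinase gene, was not called, with 113, 53.6 and 407.

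Fibroblast surface antigens and receptors were lower in 18 of 22 members, with medians of -4.26 and -4.17. The receptor kinase Axl had 28410, 207 and 0 normalized counts, the proteoglycan gene Cspg4 (NG2) had 5609, 29.5 and 22.5, and the interleukin-33 receptor Il1rl1 had 8851, 30.3 and 28.3. Integrins were lower and still present: Itgb1, the common beta chain, had 63929, 8701 and 6702, 7.35-fold (7.2 to 7.5) and 9.54-fold (9.30 to 9.78) lower. The fibronectin receptor chain Itga5 had 64544, 862 and 1076. The hyaluronan receptor Cd44 had 20318, 1648 and 1495, against 138 in iPSCs and 111 in ESCs. Nt5e (CD73), with 824, 2652 and 1739, Eng (endoglin), with 1163, 2522 and 1373, and the FGF receptor Fgfr1, with 3435, 1100 and 1334, lay within 2. Ngfr, the nerve growth factor receptor gene, went the other way, with 0 at Day 2 and 826 and 470 in the intermediates. It was also expressed in iPSCs (661) and ESCs (855).

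Contractile and actin-bundle genes were lower in 19 of 20 members, with medians of -4.27 and -4.80. Smooth muscle actin (Acta2), the marker of contractile fibroblasts, had 386131 normalized counts at Day 2, 641 at Day 10 and 939 at Day 13, 602-fold (562 to 645) and 411-fold (386 to 439) lower. Transgelin (Tagln) had 8932, 14 and 29.3, the calcium-binding S100a4 had 6998, 24.9 and 26.4, and vimentin (Vim), the intermediate filament of mesenchymal cells, had 178770, 627 and 1579. Each of these 4 genes was below 1% of its Day 2 level in both intermediates. Tropomyosins Tpm1 (147915, 8674 and 7790) and Tpm4 (76821, 9500 and 7104) and the actin cross-linker filamin A (Flna; 43811, 3910 and 5434) were lower with most left. Tagln2, a broadly expressed relative of transgelin, had 61466, 18820 and 10679 and passed the threshold at Day 13 only (-2.52). The list took 2.68% of reads at Day 2, 0.168% at Day 10 and 0.146% at Day 13.

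Mesenchymal transcription factors were lower in 20 of 33 members, lower in 1 intermediate in 6 and within 2 in 6, with medians of -4.66 and -2.97. Foxc2 (2018 at Day 2), Prrx2 (1063) and Twist2 (868) had no read in either intermediate. Osr1, a regulator of connective tissue precursors, had 2319, 4.66 and 22.5 normalized counts. Prrx1, a limb mesenchyme factor, had 12035, 293 and 171, and Snai1, the repressor of E-cadherin, had 5437, 211 and 491, 25.7-fold (22.8 to 29.2) and 11.1-fold (10.1 to 12.1) lower. The YAP partner Tead1 had 2483, 484 and 467. In this list 4 of the 20 lower genes stayed at or above 6 in both intermediates. Tcf4 (3000, 1488 and 1354) and Tbx15 (453, 744 and 372) were within 2. Tbx15 had no read at Day 15 or in either pluripotent library.

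Hox genes were lower in 22 of 25 members, and 13 of these 22 had no read in both intermediates. Medians were -6.10 and -6.45, or -4.99 and -4.76 with values below 3 reads set to 3 reads. Hoxa11 had 516 normalized counts at Day 2, Hoxc10 443, Hoxb6 409 and Hoxb7 293, each with 0 in both intermediates, at least 100-fold lower. Hoxa7, with 519, 109 and 78.1, was the 1 lower member still at or above 6 in both. Hoxa9 (201, 479 and 180) stayed within 2, and Hoxc4 (253, 225 and 36.1) passed the threshold at Day 13 only. Hox genes lie close together with antisense transcripts, and the kit does not mark strand, so reads of neighbours may be shared.

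TGF-beta and YAP response genes, which report matrix tension and autocrine TGF-beta, were lower in 14 of 17 members, with medians of -4.35 and -5.45. Besides Ankrd1 and Inhba, the focal adhesion adaptor Tgfb1i1 had 13956, 48.2 and 126 normalized counts. The matricellular YAP targets Cyr61 (90908, 13677 and 6988) and Ctgf (102198, 5022 and 2844) and the angiomotin-like Amotl2 (20049, 4966 and 3851) had most left. All 3 were lower at Day 13 than at Day 10. Bmp4 (525, 1265 and 752) was within 2, and the signal transducers Smad3 (2917, 482 and 1502) and Smad7 (1189, 202 and 304) passed the threshold at Day 10 only.

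Secreted factors were lower in 21 of 30 members, with medians of -3.90 and -3.52. Igfbp7, a secreted IGF-binding protein gene, had 17078, 17.1 and 56.6 normalized counts. The chemokine Cxcl12 had 15470, 721 and 1405, the EGF-family ligand Hbegf 11004, 996 and 925, and the chemokine Ccl7 4209, 928 and 881. These 3 were lower with most left. Gas6, the Axl ligand gene, was kept while Axl itself was lower: Gas6 had 3382, 2111 and 4005. Igfbp3 (3147, 2008 and 1961) and Pdgfa (3891, 2607 and 1100) were also within 2.

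AP-1 and immediate early factors did not follow the matrix genes. Of 15 members, 8 lay within 2 in both intermediates, a smaller share than the 61.1% of all genes compared. The medians were -0.80 and -0.58. Another 2 were lower and 2 were higher (13.3% each), near the 9.29% and 17.7% of all genes. Jun had 8809, 12258 and 6439 normalized counts, Egr1 9352, 11333 and 6266, and Ier2 5563, 10878 and 8131. Fos, the partner of Jun, was higher, with 549, 12531 and 4955, 22.8-fold (21 to 24.8) and 9.02-fold (8.28 to 9.83), and so was the stress-responsive Atf3, with 45.7, 2028 and 802. Fosl1 (3583, 103 and 80.1) and Fosl2 (2897, 380 and 416), the fibroblast-enriched Fos relatives, were lower. Within 1 family, then, Fos and its relatives lay on opposite sides of Day 2, and Jun (358 and 483 in iPSCs and ESCs) remained at its Day 2 level.

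Genes of p53 and senescence stayed mostly near Day 2: 15 of 20 were within 2, against 61.1% of all genes compared. Another 2 were lower (10%, near the 9.29% of all genes) and 1 was higher. The medians were -0.37 and -0.58, and the Day 10 median became 0.07 when libraries were scaled by total reads. Trp53 had 10572, 13568 and 16411 normalized counts, Bax 9639, 7724 and 8063, and the p53 target Cdkn1a 27720, 11524 and 10808. Lower members were Cdkn2b, which encodes the cell-cycle inhibitor p15 (4194, 477 and 446), and Serpinb2 (645, 0 and 0). Cdkn1c, which encodes p57, was higher, with 73.1, 373 and 300.

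Where these genes stood among others was read per kilobase of exon, as a percentile of the compared genes with a known length in each library. Col1a1 was at the percentile 99.9 at Day 2, 68.2 at Day 10 and 92.2 at Day 13, and Acta2 went from 100 to 66.2 and 74. Vim was at 99.8, 49.3 and 69.3. Sparc stayed high at 99.8, 93.8 and 95.1, as did Tpm4 at 99.7, 97.5 and 96.3. Dcn stood at 33.7, 86 and 81.3 and Fos at 61, 98 and 94.1. Some lower genes thus remained among the more abundant transcripts of the intermediates, and others came down to the middle of the range.

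What was left of the fibroblast programme was also set against the pluripotent end points. Of the 272 fibroblast genes, 44 (16.2%) lay at least 2 above both iPSCs and ESCs in both intermediates, against 1018 of all 14915 genes (6.83%). Surface antigens and receptors held 7 of these among 22 genes, secreted factors 7 among 30, AP-1 and immediate early factors 5 among 15 and TGF-beta and YAP response genes 0 among 17. Of the 191 lower fibroblast genes, 27 were lower than at Day 2 yet above both pluripotent libraries, against 119 of all 1385 lower genes.

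The gained side was followed in 13 lists with 275 genes compared, of which 157 (57.1%) were higher in both intermediates, against 17.7% of all genes, and 5 were lower. These members, too, were chosen with earlier results known, which may account for part of the excess. Medians were 3.75 and 4.42, or 3.49 and 4.41 with values below 3 reads set to 3 reads. Day 2 held no read for 102 of the 157 higher genes. Over all genes compared, 2058 had no read at Day 2, and 1770 of these (86.0%) were higher. Such genes passed the filter only through an intermediate, so 17.7% is a low comparator for lists rich in them. With a read required in all 3 libraries 55 of 169 gained genes were higher, against 869 of all 12215. The lists together took 1.74% of reads at Day 2, 5.21% at Day 10 and 5.6% at Day 13.

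**Figure D3:**
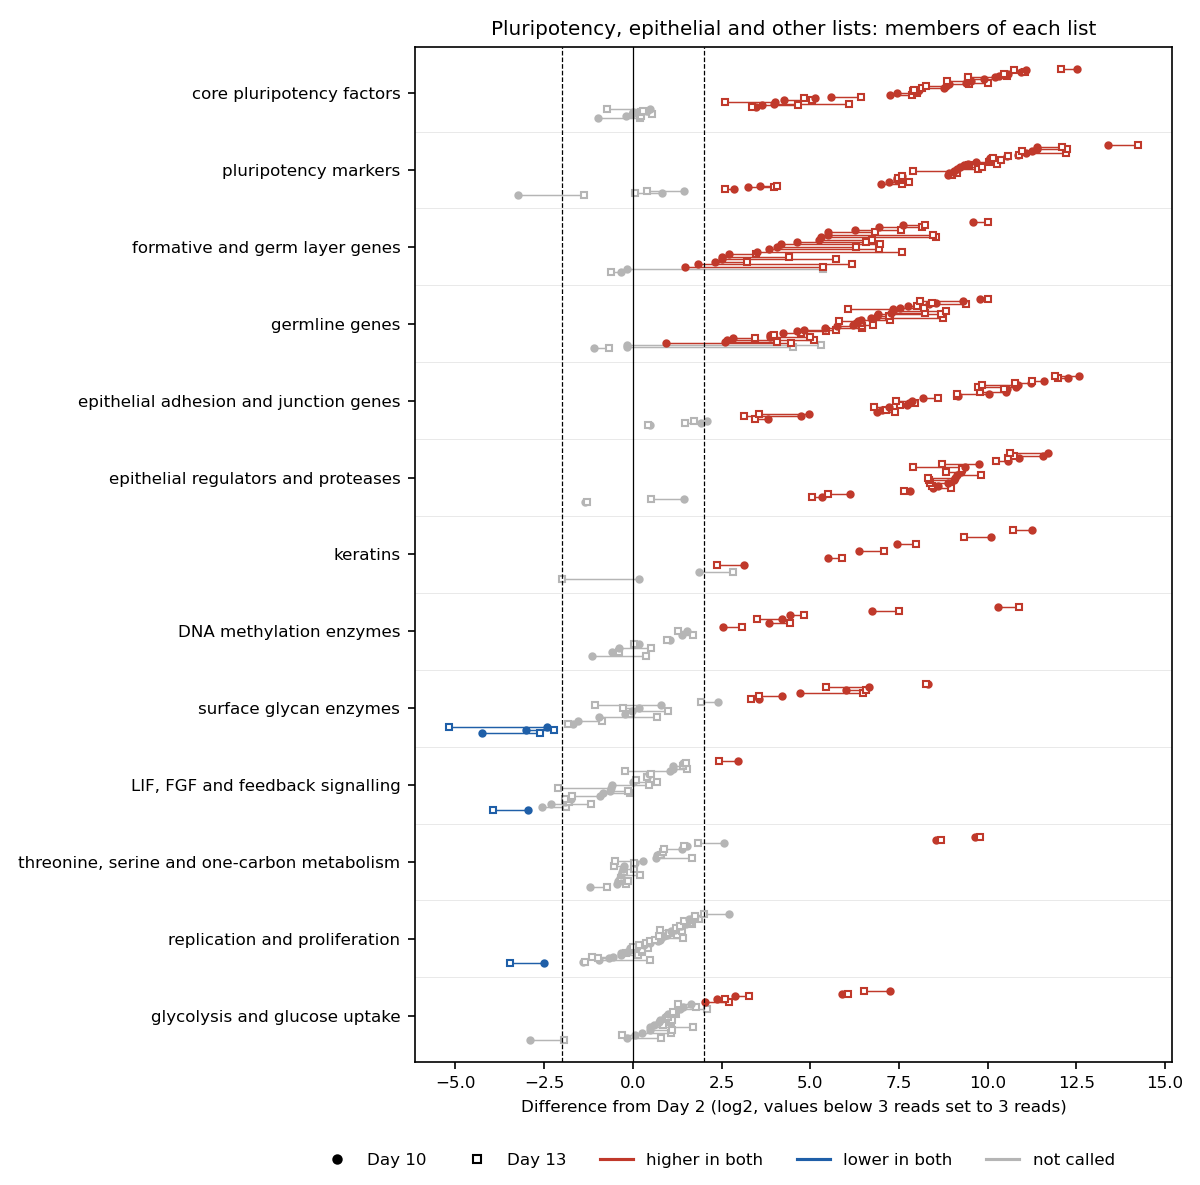
Every compared member of the 13 gained lists is drawn from Day 10 (filled circle) to Day 13 (open square) on the log2 difference from Day 2, with values below 3 reads set to 3 reads, which brings some called members inside the dashed lines at 2. Pluripotency, germline and epithelial members lie to the right, whereas most members of the signalling, one-carbon, replication and glycolysis lists lie within 2 of Day 2.

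Core pluripotency factors were higher in 23 of 29 members and lower in 0, with medians of 8.05 and 8.01. Nanog had 3 reads at Day 2 and was 2973-fold (1017 to 14419) and 2330-fold (797 to 11303) higher in the intermediates. Sall4 had 0, 7427 and 7929 normalized counts and Zfp42 0, 5728 and 5250. These levels lay below the pluripotent cells: Nanog stood at 31226 in iPSCs and 19105 in ESCs, and Zfp42 at 30232 and 22394. The other 6 members were within 2. The list took 0.0177% of reads at Day 2, 0.3% at Day 10 and 0.277% at Day 13. The iPSC library had 0.745% and the ESC library 0.469%.

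Other pluripotency markers were higher in 25 of 28 members, 19 of them from no read at Day 2, with medians of 11.01 and 11.20. Utf1 had 0, 9963 and 18234 normalized counts, Tdgf1 0, 10008 and 16389, and Trh 0, 8096 and 17754. Each of these 3 genes, like Dppa5a, was higher at Day 13 than at Day 10, as were 23 of the 28 markers. Dppa5a was still below the 207174 of iPSCs and the 195969 of ESCs, whereas Trh exceeded the 4529 and 10205 of those cells at Day 13.

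Formative and germ layer genes, which mark cells leaving naive pluripotency, were higher in 19 of 21 members, with medians of 5.75 and 8.49. Otx2, a regulator of formative pluripotency, had 0, 2854 and 3832 normalized counts. Fgf8 had 0, 736 and 1119, Fgf15 0, 462 and 1057, and the Wnt ligand gene Wnt8a 0, 286 and 704. All 4 were higher at Day 13 than at Day 10, as were 20 of the 21. The SSEA1+ library of Day 8 had no read of Otx2 or Wnt8a, but it lacked reads for other abundant genes too, as given above.

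Germline genes were higher in 27 of 30 members, with medians of 8.16 and 8.34. Morc1, which silences transposons in male germ cells, had 0, 3305 and 3888 normalized counts, the meiotic axis gene Hormad1 0, 1209 and 2526, and the germ cell factor Sohlh2 0, 1406 and 1289. Piwil2, which acts in the piRNA pathway, had 1 read at Day 2 and 0.914, 2383 and 1029 normalized counts. Of the 30 genes, 26 were higher at Day 13 than at Day 10. Reads on the list were 0.00117% at Day 2, 0.0549% at Day 10 and 0.0800% at Day 13.

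Enzymes of DNA methylation were higher in 6 of 13 members and lower in 0, with 7 within 2. Dnmt3l, the cofactor of de novo methylation, had 0, 4725 and 7030 normalized counts. The de novo methyltransferase Dnmt3b had 107, 11484 and 19400, 107-fold (89.5 to 130) and 181-fold (151 to 219) higher, and its Day 13 level exceeded the 5449 of iPSCs and 11622 of ESCs. The 5-methylcytosine oxidase Tet1 had 277, 6031 and 7896, and the mismatch glycosylase Mbd4 36.6, 541 and 801.

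Surface glycan enzymes were mixed, with 6 of 17 higher (35.3%), 3 lower (17.6%) and 7 within 2. Over all genes 17.7% were higher and 9.29% lower. SSEA1 carries fucose placed by a fucosyltransferase, and Fut9 had 0, 377 and 162 normalized counts, at least 138-fold and at least 59.1-fold higher than at Day 2. Fut4, a second enzyme able to add this fucose, had 141, 25.6 and 0 and was lower. The sort on SSEA1 bears directly on this list, and Fut9 and Fut4 lay on opposite sides of Day 2. The chain-extending B3gnt3 (0, 1187 and 1153), B3gnt7 (11, 774 and 1129) and Fut1 (0, 96.3 and 338) were higher, whereas the sialyltransferase St6gal1 (2778, 144 and 451) and Fut10 (1006, 124 and 214) were lower. Under scaling by total reads 7 were higher and 1 lower.

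Epithelial genes formed the other large gain. Adhesion and junction genes were higher in 20 of 23 members, with medians of 9.78 and 9.32. Epcam had 0 normalized counts at Day 2, 18523 at Day 10 and 15143 at Day 13, at least 6754-fold and at least 5521-fold higher. Cldn4 had 0, 22667 and 14190, and Cldn6, a tight junction gene of embryonic epithelia, 0, 9015 and 6595. Day 10 exceeded Day 13 in each of these genes and in Cdh1, and 4 of the 23 members were higher at Day 13. Cldn4 stood at 2870 in iPSCs and 3842 in ESCs, below both intermediates.

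Epithelial regulators and proteases were higher in 17 of 19 members, with medians of 10.95 and 10.24. The membrane protease St14 (matriptase) had 0, 12506 and 5956 normalized counts and its inhibitor Spint1 had 0, 7089 and 5749. Ap1m2, an epithelial sorting adaptor, had 0.914, 5671 and 4490. In this list 3 of 19 genes were higher at Day 13 than at Day 10.

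Keratins, the intermediate filaments of epithelia, were higher in 6 of 8 members, with medians of 6.88 and 7.44. Krt8 was 1119-fold (860 to 1486) and 662-fold (508 to 879) higher, and its partner Krt18 was 177-fold (140 to 228) and 256-fold (202 to 328) higher. Krt17 had 0, 9141 and 6317 normalized counts and Krt14, a basal keratin, 17.4, 1515 and 2497. All 8 keratins lay at least 2 above both iPSCs and ESCs in both intermediates, against 6.83% of all genes. The same held for 8 of 23 adhesion and junction genes and 8 of 19 epithelial regulators, but for 0 of 29 core pluripotency factors. Keratins took 0.00479% of reads at Day 2, 0.276% at Day 10 and 0.206% at Day 13. The iPSC share was 0.00257% and the ESC share 0.0107%.

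Epidermal differentiation genes, listed apart as markers of another cell type, were higher in both intermediates in 7 of 11. The transglutaminase Tgm1 had 0, 6381 and 3490 normalized counts, Krt13 1.83, 4088 and 1946, the cornified envelope gene Sprr1a 0, 699 and 1137 and the surface antigen gene Ly6d 0, 497 and 302. Krt13, Sprr1a and Ly6d had no read in iPSCs or ESCs. Summed over the list, normalized counts were 3530 at Day 2, 42485 at Day 10 and 23347 at Day 13. Their part in the epithelial gain was not tested.

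**Figure D4:**
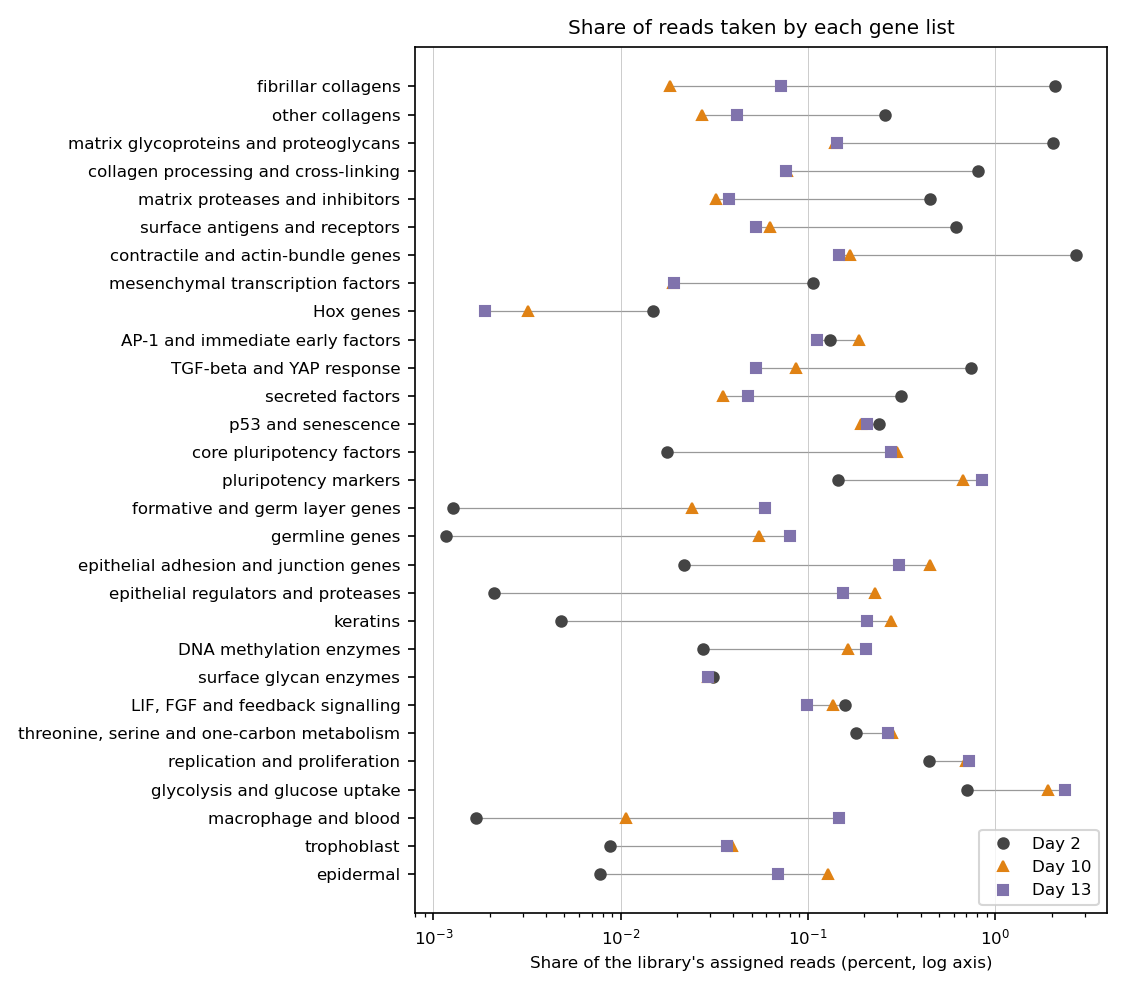
The x axis (log scale) is the percent of each library's assigned reads that fell on the members of a gene list, for Day 2 (circles), Day 10 (triangles) and Day 13 (squares). Most matrix and contractile lists lie more than 10-fold lower in the intermediates, the AP-1 and p53 lists change little, and the macrophage list separates Day 13 from Day 10.

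Metabolic and proliferation lists are read against the 17.7% of all genes that were higher. Glycolysis and glucose uptake genes were higher in 5 of 20 (25%), with medians of 0.95 and 1.17: the glucose transporter Slc2a1 had 8964, 46111 and 53976 normalized counts, the phosphofructokinase Pfkl 3565, 26309 and 34240, Pdk1, which restrains pyruvate entry into the mitochondrial cycle, 75, 4528 and 5093, and Aldoc 30.2, 4785 and 2874. The list took 0.706% of reads at Day 2, 1.90% at Day 10 and 2.35% at Day 13. Of 18 genes of threonine, serine and one-carbon metabolism, 2 (11.1%) were higher, the glycine cleavage genes Gldc (0, 1402 and 1550) and Amt (0, 2993 and 3321). None of 30 replication and proliferation genes was higher in both, with medians of 0.78 and 0.68, and Ccnd2, a D-type cyclin gene, was lower (34697, 6081 and 3158). Under scaling by total reads 5 of these 30 were higher.

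Signalling genes of the LIF and FGF pathways were within 2 in 14 of 19 members, against 61.1% of all genes compared. Etv5, a target of FGF signalling, was higher (1743, 13495 and 9420 normalized counts), and Id3, a target of BMP signalling, was lower (29371, 3783 and 1918). The list medians were -0.58 and -0.08, and the Day 13 median became 0.34 under scaling by total reads.

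Markers of other cell types were counted as well, and 43 of 97 (44.3%) were higher and 10 (10.3%) lower in both intermediates, against 17.7% and 9.29% of all genes. The same limit on the choice of members holds here. Of the 43 higher markers, 33 had no read at Day 2, a class in which 86.0% of all genes compared were higher. The share of lower markers was near that of all genes, as was the share of higher neural markers and of higher muscle and heart markers (22.2% each). Macrophage and blood markers were higher in 12 of 21 and higher in 1 intermediate in 8, with medians of 4.15 and 9.62. The antigen-receptor adaptor Fcer1g had 0, 106 and 1212 normalized counts, the Fc receptor gene Fcgr3 0, 349 and 1485, Ptprc (CD45) 0, 67.6 and 204, and the actin bundler Lcp1 0, 131 and 788. The master factor Spi1 had no read at Days 2 and 10 and 520 normalized counts at Day 13. Complement C1qa had 0, 26.4 and 1941. Of the 21 markers, 15 had no read at Day 2, 6 had none at Day 10 and 0 lacked one at Day 13. All 21 were higher at Day 13 than at Day 10, and summed over the list the normalized counts were 765 at Day 2, 3534 at Day 10 and 49737 at Day 13. At Day 8 the sum was 77208. Macrophage transcripts took 0.00169% of reads at Day 2, 0.0106% at Day 10 and 0.147% at Day 13, and their part in the genes higher at Day 13 only was not tested.

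Endothelial markers were higher in 5 of 8, among them Pecam1 (0, 1790 and 2094 normalized counts), which iPSCs (4095) and ESCs (3325) also expressed, Tie1 (0, 325 and 327), Vwf (0, 214 and 341) and Tek (0, 283 and 84.0). The defining endothelial genes Cdh5 (0, 47.4 and 3.91) and Kdr (0, 0 and 44.0) were below the level at which genes were compared. Trophoblast markers were higher in 7 of 11 and lower in 1: Ascl2 had 0, 1473 and 1362, Elf5 0.914, 1396 and 744, and Hand1 0, 523 and 453, against 0 in iPSCs and 51.9 in ESCs for Hand1. Primitive endoderm markers were split, with 3 higher (Lama1, Gata4 and Sox7) and 3 lower (Pdgfra, Sparc and Col4a1, which fibroblasts also express) of 9. That is 33.3% each way, against 17.7% and 9.29% of all genes. Neural markers were higher in 2 of 9 (Elavl3 and Sox1) and lower in 3, among them Ncam1 (7789, 194 and 289) and Nes (7587, 796 and 850), and muscle and heart markers were higher in 2 and lower in 2 of 9. Of 5 erythroid and haematopoietic markers compared, 4 were higher, among them Kit (0, 244 and 1175), which iPSCs (2298) and ESCs (1672) also expressed, and Runx3 was lower (230, 0 and 0). Of 2 two-cell-like genes compared, 0 were higher in both.

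X inactivation regulators were within 2 in 11 of 12 members, against 61.1% of all genes compared. Xist, the RNA that coats the inactive X chromosome, had 4797, 4387 and 4486 normalized counts at Days 2, 10 and 13, whereas iPSCs had 937 and ESCs 992. Tsix, which is transcribed across Xist on the other strand, had 0, 81.5 and 89.9, and without strand these reads could not be told from Xist. Over the whole chromosome, 154 of 552 X-linked genes (27.9%) were higher and 43 lower in both intermediates, against 2423 of 14115 autosomal genes (17.2%) higher and 1319 (9.34%) lower. The median difference of X-linked genes was 0.37 at Day 10 and 0.55 at Day 13, against 0.05 and 0.08 for autosomal genes.

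Other features of the called genes were the gene type and the Day 2 level, which enters both the filter and the difference. Of 238 long intergenic RNAs compared, 95 (39.9%) were higher, against 2267 of 13380 protein-coding genes (16.9%). They were also more often lower, at 34 (14.3%) against 1249 (9.33%). The share of lower genes did not follow the Day 2 level steadily. It was 14.4% of genes from 6 to under 8 on the log2 scale, 9.85% from 8 to under 10, 9.28% from 10 to under 12, 14.2% from 12 to under 14 and 28.6% (108 of 377) at or above 14. Of the 100 protein-coding genes with most Day 2 reads, 41 were lower, 0 higher and 54 within 2 in both. Their share of reads went from 19.4% to 10.7% at Day 10 and 10.9% at Day 13. These genes were picked for their Day 2 level, so a lack of higher members and a falling share partly follow from that choice. Of all 1875 genes at or above 12 at Day 2, 1 was higher and 320 (17.1%) were lower.

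Gene lists differed in which of the 2 intermediates held the higher level. Over all genes compared, 7653 of 14915 (51.3%) were higher at Day 13 than at Day 10. The share was 12 of 14 for other collagens, 26 of 30 for germline genes, 20 of 21 for formative genes and 16 of 20 for glycolysis genes. It was 4 of 23 for epithelial adhesion genes, 3 of 19 for epithelial regulators and 5 of 15 for AP-1 factors, with the remaining members of these 3 lists lower at Day 13. Of 25 Hox genes, 3 were higher and 9 lower at Day 13, and 13 had no read in either intermediate. With 1 library per day these counts describe the 2 libraries and were not tested.

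**Figure D5:**
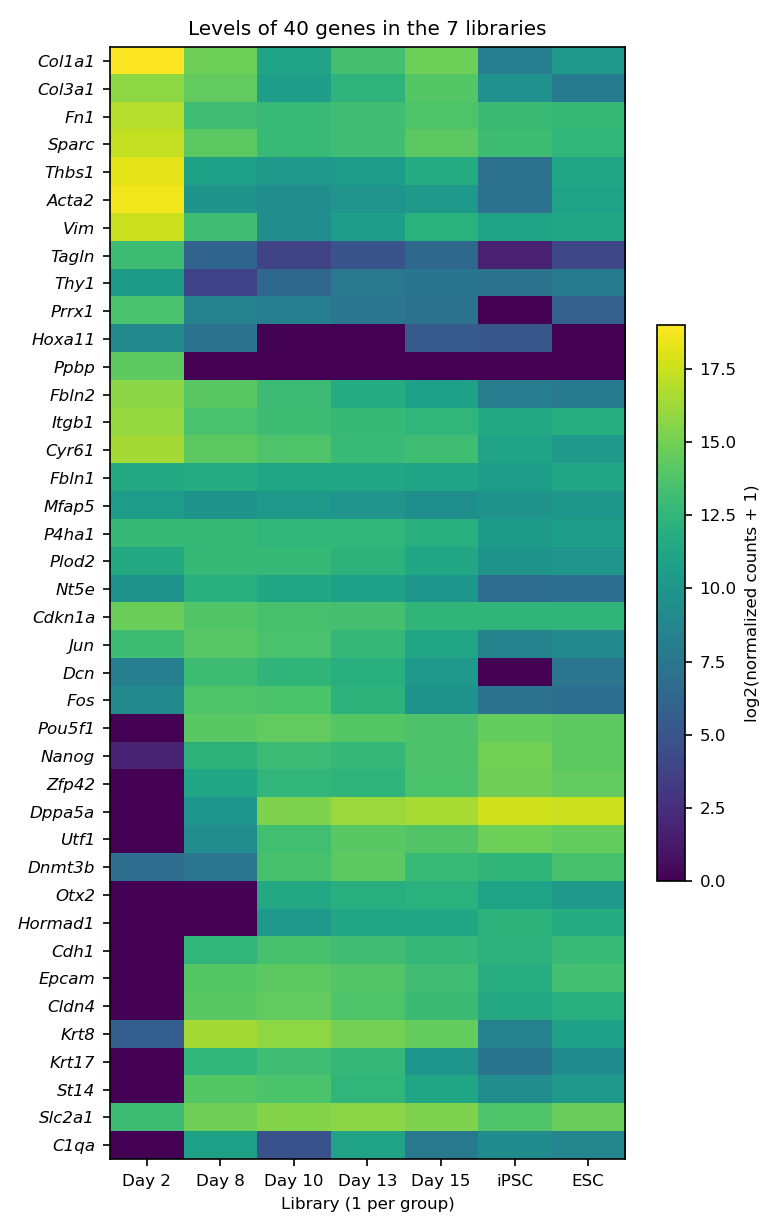
Colour gives the level of 40 named genes, as log2 of normalized counts plus 1, in each of the 7 libraries of the series from Day 2 to ESC. Most matrix and contractile genes, though not Dcn or Plod2, are brightest at Day 2. The keratins Krt8 and Krt17 are brightest from Day 8 to Day 13 and the pluripotency genes in the later libraries, whereas Fbln1 and Mfap5 stay alike throughout.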

How the data were processed

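RNA sequencing libraries of Day 2, Day 10 SSEA1+ and Day 13 SSEA1+ were used, with the other 4 libraries as reference levels. Per the labels' protocols, the inputs were 500 pg of RNA and 80 pg of cDNA, and the Nextera XT kit was used. The tools named in the submitters' processing notes are FastQC, STAR 2.5.3a and featureCounts, with mm10 (GRCm38.p5) as the genome. The values deposited by the authors are log2 of normalized counts plus 1. How the authors set the size factors is not stated in the labels. Converted back, 100% of values were whole numbers of reads within 0.01 reads. With 1 library per group no count test was run. Totals ranged from 34687308 to 49549757 reads in the 3 libraries, and 3 reads were worth 2.74, 2.33 and 2.93 normalized counts at Days 2, 10 and 13.

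Differences, counts and medians were computed in Python 3.11.15 with pandas 2.3.3 and numpy 2.4.6, folds with Clopper-Pearson intervals in scipy 1.17.1 and Wilson intervals of read shares in statsmodels 0.14.6. The call was run on simulated counts with 200 genes changed well past the threshold and counting error only. That run checks the code and says nothing about false calls between single libraries. Positions and gene types came from GENCODE M21, which matched 23436 symbols and left 957 unmatched. A list member was compared where the highest of the 3 values was at least 6. The members and the 36 gene lists were chosen with earlier results of these data known. Genes were named by rule: the 12 furthest in each direction, without predicted genes and near-identical families; up to 4 called members a list and up to 3 called the other way; in fibroblast lists up to 3 lower and 3 uncalled members with most left; and the vector genes, SSEA1 enzymes and cell type markers. Xist was named after its values were seen. Genes with near-identical copies or pseudogenes, such as Pou5f1 and Dppa5a, may share reads. Alternatives were other filters, thresholds, scalings, treatments of zeros and each intermediate alone. Some genes that the rule names are not reported here.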

Additional observations from a re-analysis of the deposited data

Results flagged for a closer look

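A few genes went opposite ways in the 2 intermediates, and 3 of the 28 were named for the size of their smaller difference. Myo1a, a brush border myosin gene, had 42.1 normalized counts at Day 2, 481 at Day 10 and 0 at Day 13, a difference of 3.48 at Day 10 and -5.43 at Day 13. Vamp1, a vesicle fusion gene, had 32, 0 and 265 normalized counts, with -5.04 at Day 10 and 3.01 at Day 13. AB124611 had 22.9, 0 and 196 normalized counts, with -4.58 and 3.05. With 1 library per group these differences between the intermediates were not tested.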

How the results depend on the processing

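No paired analysis was possible because each group has 1 library and no replicate numbers. Of the counts given above, 2639 higher genes became 4106 without a filter on low values, 1486 with a filter at 8 and 869 with a read required in all 3 libraries. The 1385 lower genes became 2682 at a threshold of 1 and 807 at a threshold of 3. With a read in all 3 libraries, 55 of the gained genes and 10 of the markers of other cell types were higher. These alternatives differ by construction in the genes or differences admitted. All other alternatives kept the 5 counts within 1.5 times: fibroblast genes lower in both ranged from 142 to 216. Scaling by total reads moved the median of all genes by 0.44 at Day 10 and 0.42 at Day 13 and gave 2996 higher and 1034 lower genes, TMM scaling 2682 and 1335. Of 179 named genes called different, 0 changed sign under TMM, either total-read scaling or the floor of 3 reads. Genes at least 2 from Day 2 could hardly change sign under such shifts, so this count says little. Some called genes did fall short of the threshold, among them Amotl2 under TMM. Under total reads Amotl2, Serpine2, Ccl7, Hoxa7, Fut10, Tead1 and Fut4 were among those that did. Of the fibroblast genes, 191 were lower as deposited, 184 under TMM and 168 under total reads. Of 33 uncalled named genes, the difference nearer 0 changed sign for 1 under TMM, 8 under total reads and 9 under total reads without mitochondrial and ribosomal RNA. Day 10 alone called 2946 higher and 2019 lower genes, and Day 13 alone 3146 and 1743. Folds from values of 0 at Day 2 are bounds for counting error only. Day 2 had the most reads of the 3 libraries, yet 116 genes abundant in all other libraries had no read there. Why they had none was not tested. The planned count of promoter motifs was not run.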
